A study of Mus musculus with 20 samples.

Results

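Oxidative phosphorylation is carried by 4 electron-transfer complexes and the ATP synthase, whose subunits are encoded partly in the nucleus and partly in the mitochondrial genome. The genes described here were selected by symbol (Ndufa, Ndufb, Ndufc, Ndufs and Ndufv subunits, Sdha to Sdhd, Uqcr, Cox4 to Cox8, Atp5 and the protein-coding genes of the mitochondrial genome) and by a sum of at least 200 counts over the 20 libraries. This gave 91 of the 55421 genes in the count table, 78 nuclear and 13 mitochondrial. Of the nuclear genes, 35 belonged to complex I, 4 to complex II, 8 to complex III, 14 to complex IV and 17 to complex V, the ATP synthase.

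RNA was sequenced from whole livers of wildtype mice that the labels give as female, after polyA selection. The study's text calls the mice of this experiment male in one place and female in another. At 6 months of age every mouse received an AAV8 virus that expresses the nuclease saCas9 from the hepatocyte promoter Tbg together with a guide RNA under the U6 promoter, so the controls carried nuclease and virus too. The guide targeted either the safe-harbour locus Rosa26 or Hira, which encodes a chaperone that deposits histone H3.3 outside replication. Livers were taken after 3 weeks or 6 months, with 5 mice in each of the 4 groups. Cells other than hepatocytes were not targeted and remained in the samples. In whole liver, fewer cells of a type and less RNA per cell cannot be told apart.

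Complex I passes electrons from NADH, and complex II those from succinate, to ubiquinone. Complex III passes them on to cytochrome c and complex IV to oxygen. Complexes I, III and IV pump protons, and the ATP synthase uses the gradient. Complex II has no mitochondrially encoded subunit, whereas the other complexes are assembled from both genomes. Hepatocytes are rich in mitochondria and depend on this pathway for gluconeogenesis and urea synthesis.

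Library totals ran from 19916430 to 24079736 counts. Hira, the targeted gene, had a log2 fold change of -0.48 ± 0.14 (SE) between HIRA and Rosa26 at 3 weeks and of -0.10 ± 0.14 at 6 months, with adjusted p = 0.197 and 0.794 (edgeR). An edited transcript can still be counted, so this RNA level does not check the loss of the protein. The library labelled HIRA 6 months replicate 5 went against its labelled sex. It held 9 counts of Xist, against 6286 to 8436 in the other 19 libraries, and 2041 counts of the Y-linked genes Ddx3y, Eif2s3y, Kdm5d and Uty, against at most 13. Its summed fat markers reached 10.6 CPM (counts scaled to a common library size), against at most 0.679 CPM elsewhere, with Lep at 0 in every library. The main counts, medians and calls at 6 months are therefore also given without it.

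The selection threshold lay in a thinly filled range. Just inside it were mt-Nd4l with 440 counts, mt-Nd3 with 583 and Cox7a1 with 674. Just outside were Cox6b2 with 175, Atp5l-ps1 with 149, Ndufs6b with 131 and Cox6c2 with 118. Ndufb1-ps, with 20435 counts, was left out because its symbol ends in -ps. All 91 selected genes were tested, none being lost to the filter of at least 10 counts in all.

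Counts of the mitochondrial genome were uneven between genes in a way that the deposited FPKM values (fragments scaled to gene length and library size) were not. In all, 7 of these genes, written below as the 7 well-counted mitochondrial genes, had more than 100000 counts each: mt-Nd1, mt-Nd2, mt-Co1, mt-Nd4, mt-Nd5, mt-Nd6 and mt-Cytb. The other 6 had few. The median library held 376812 counts of mt-Co1, the catalytic subunit of cytochrome c oxidase, but 307 of mt-Co2 and 388 of mt-Co3, its other mitochondrial subunits. In FPKM, which can be compared between genes, the medians were 12568 for mt-Co1, 6235 for mt-Co2 and 6328 for mt-Co3. The plot of counts per base against FPKM separates the 6 genes from the 7.

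**Figure D1:**
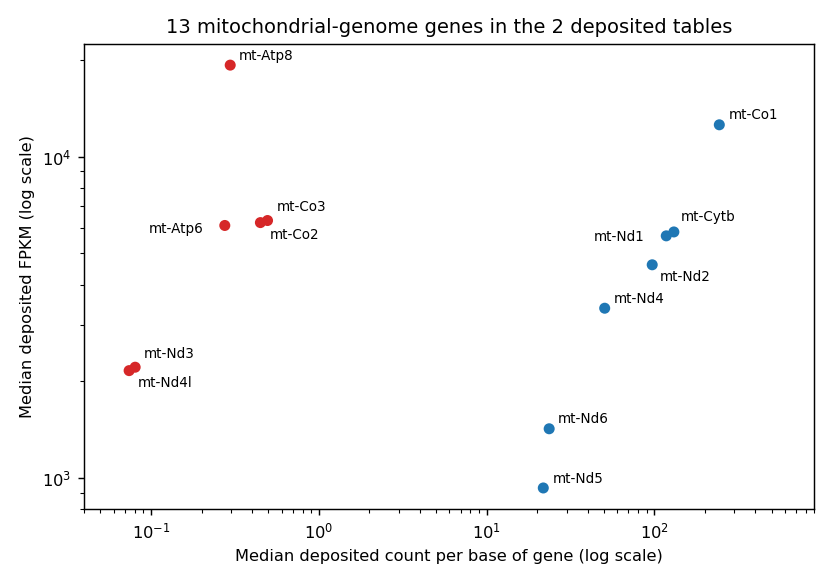
Median deposited count per base of gene (x axis, log scale) against median deposited FPKM (y axis, log scale) over the 20 libraries, 1 point per mitochondrial gene. The 6 red genes, mt-Co2, mt-Co3, mt-Atp6, mt-Atp8, mt-Nd3 and mt-Nd4l, lie under 1 count per base, whereas the 7 blue genes lie above 20.

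Near-identical nuclear copies of mitochondrial genes were found on chromosome 1, where 7 pseudogene models fill the span chr1:24611535-24616197 (GRCm38). Of the 13 mitochondrial genes, 6 had a copy at 99% identity or more over at least 50% of their length (mt-Co2, mt-Co3, mt-Atp6, mt-Nd3, mt-Nd4l and mt-Nd4), against 3 of the 78 nuclear genes (Atp5l, Cox7c and Atp5g2). The first 60 bases of mt-Co2 (chrM:7013-7072, plus strand) and of its copy Gm28661 (chr1:24615506-24615565, minus strand) are shown because a read from here has no base by which to tell them apart. The same stretch of mt-Nd3 (chrM:9459-9518) and Gm28438 (chr1:24613060-24613119, minus strand) is shown with its difference, T3C counted from the first base of the gene, in capitals.
mt-Co2: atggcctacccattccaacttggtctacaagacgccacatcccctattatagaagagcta
Gm28661: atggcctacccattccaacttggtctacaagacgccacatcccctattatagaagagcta
mt-Nd3: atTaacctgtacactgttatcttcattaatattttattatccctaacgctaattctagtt
Gm28438: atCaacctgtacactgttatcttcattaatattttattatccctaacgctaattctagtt

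The match between annotated copies and low counts was not complete. mt-Nd4 had its copy over 63.6% of its length and still a median of 69714 counts, and mt-Atp8, with a median of 60.5 counts, had no annotated copy at this threshold. However, mt-Atp8 (chrM:7766-7969) follows mt-Co2 and overlaps mt-Atp6, which both had a copy. Only annotated transcripts were searched, so an unannotated copy of mt-Atp8 would be missed. The part of the copies in the low counts was not tested. Because of the low counts, medians over the mitochondrial genome are given for the 7 well-counted genes.

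The share of the library taken by the nuclear genes overlapped between the groups. They took 1.15% ± 0.0650 of counts (SD, n = 5) with the Rosa26 guide and 1.12% ± 0.0941 with the HIRA guide at 3 weeks, and 1.17% ± 0.0860 and 1.07% ± 0.0722 at 6 months. The 5 libraries with the HIRA guide at 6 months held 1.15%, 1.01%, 1.09%, 0.976% and 1.10%, against 1.26%, 1.09%, 1.23%, 1.20% and 1.07% with Rosa26. The HIRA mean at 6 months was 1.06% ± 0.0798 without replicate 5 (n = 4). Single libraries of either guide reached the range of the other at both times.

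The 13 mitochondrial genes took 3.53% ± 0.573 (Rosa26) and 3.85% ± 0.224 (HIRA) of counts at 3 weeks, and 4.13% ± 0.243 and 4.48% ± 0.949 at 6 months (SD, n = 5). At 6 months the HIRA libraries held 3.83%, 4.71%, 3.63%, 4.24% and 6.01%, where 6.01% is the library with male marker counts. Without it their mean was 4.10% ± 0.476 (n = 4). The log2 ratio of mitochondrial to nuclear counts was 1.61 ± 0.283, 1.78 ± 0.162, 1.82 ± 0.100 and 2.05 ± 0.313 in the Rosa26 and HIRA groups at 3 weeks and the Rosa26 and HIRA groups at 6 months. The HIRA mean was above the Rosa26 mean by 0.17 at 3 weeks and 0.23 at 6 months, or by 0.13 at 6 months without replicate 5, and the libraries overlapped in both comparisons. Without Rosa26 replicate 1 the difference at 3 weeks was 0.06, and without HIRA replicate 5 of 3 weeks it was 0.11.

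**Figure D2:**
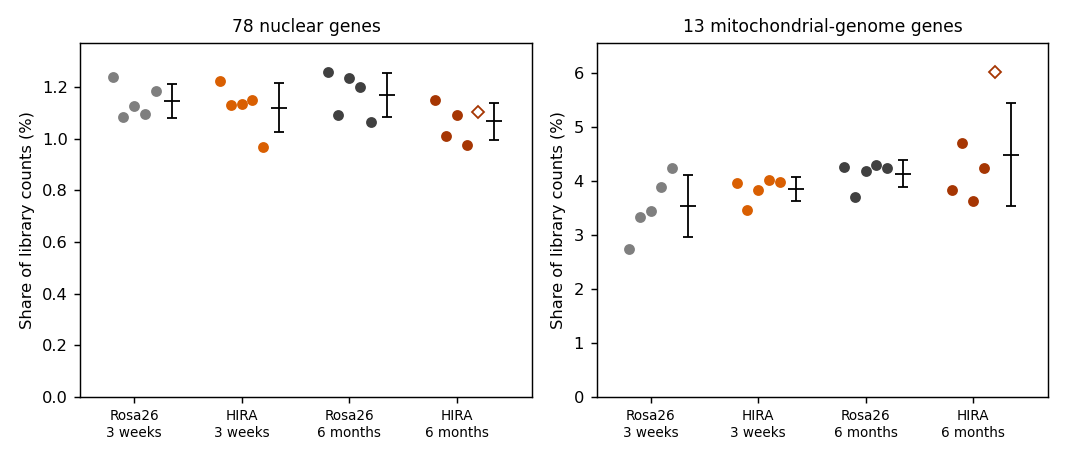
Share of library counts (%, y axis) taken by the 78 nuclear genes (left) and the 13 mitochondrial genes (right), 1 point per library in the 4 groups, with mean and SD (n = 5) at the right of each group. The open diamond is the library labelled HIRA 6 months replicate 5, at 6.01% the highest mitochondrial share.

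At 3 weeks no oxidative phosphorylation gene passed the test between guides. The count at adjusted p under 0.05 (edgeR's quasi-likelihood test, Benjamini-Hochberg) was 0 of 91, where 0.197% of all 22867 tested genes passed, and DESeq2 and limma-voom also called 0. At unadjusted p under 0.05, 1 gene was lower, against 4.5% of all genes, and 1 was higher, against 4.37%. The lower gene was Ndufa2, an accessory subunit of the matrix arm of complex I, at a log2 fold change of -0.43 ± 0.14 (SE). For no gene were the 5 libraries of one guide all below or all above those of the other, while this held for 1.24% of all genes downwards and 1.45% upwards.

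The higher gene at 3 weeks was mt-Co3, at 1.58 ± 0.47 on the log2 scale. Its counts were 1710, 787, 238, 372 and 414 in the HIRA libraries and 252, 187, 266, 230 and 208 in the Rosa26 libraries. Replicates 1 and 2 of the HIRA group stood highest. In FPKM the same gene had means of 6149 ± 412 with HIRA and 6236 ± 305 with Rosa26 (SD, n = 5), so the difference was present in the counts and not in the FPKM values. mt-Co3 is among the 6 genes with few counts.

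At 3 weeks the nuclear genes lay slightly below 0 as a set, at a median log2 fold change of -0.07 against -0.01 over all tested genes. In all, 63 of 78 were below 0, as were 50.9% of all tested genes. Values by coding length, which were lower for short genes in general, are given further below. The nuclear median was -0.01 without HIRA replicate 5, with 47 of 78 below 0, and -0.02 without Rosa26 replicate 1, with 49 below 0. It was -0.12 without HIRA replicate 1, with 70 below 0, and -0.10 without Rosa26 replicate 4, with 64 below 0. In each of these last 2 fits 6 of the 91 genes were lower at unadjusted p under 0.05, where 4.08% and 4.78% of all tested genes were. The medians by complex ran from -0.10 for complex IV to -0.04 for complex V. The 7 well-counted mitochondrial genes had a median of 0.08, which was -0.02 with 4 of 7 below 0 without Rosa26 replicate 1 and 0.18 without Rosa26 replicate 5. The largest nuclear fold changes upwards were those of Cox7a1, the muscle-type isoform of a complex IV subunit, at 0.49 ± 0.28, Ndufa4l2 at 0.25 ± 0.18 and Ndufa1 at 0.09 ± 0.14, each at an unadjusted p above 0.05.

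At 6 months most nuclear genes had lower values with the HIRA guide, and 2 of them passed the test. Atp5e, the epsilon subunit of the central stalk of the ATP synthase, fell by 0.65 ± 0.15 in log2 CPM (SE, adjusted p in edgeR = 0.0325), and Ndufb2, an accessory subunit of the membrane arm of complex I, fell by 0.52 ± 0.13 (adjusted p = 0.0440). These 2 of 91 passed, against 1.31% of all genes. Another 30 nuclear genes were lower at unadjusted p under 0.05, giving 32 in all where 6.85% of all tested genes were lower by the same rule. Shares by coding length, which were higher for short genes, are given further below. mt-Nd2 was the 1 gene higher, where 8.68% of all tested genes were. The median over the nuclear genes was -0.18, against 0.03 over all genes, and 71 of 78 were below 0, against 45.7% of all genes.

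Atp5e is at chr2:174461072-174464105 (GRCm38, minus strand, ENSMUSG00000016252.7). It stood at 94.1, 68.0, 84.0, 68.5 and 80.4 CPM in HIRA replicates 1 to 5 at 6 months and at 124, 115, 123, 146 and 112 CPM in the Rosa26 replicates. Every HIRA library was below every Rosa26 library. At 3 weeks it was 133, 123, 125, 97.5 and 75.7 CPM with HIRA and 167, 135, 145, 98.8 and 126 CPM with Rosa26, and the groups overlapped.

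Ndufb2, at chr6:39592574-39603382 (plus strand, ENSMUSG00000002416.13), was at 28.9, 26.3, 32.3, 25.6 and 29.5 CPM with HIRA at 6 months. With Rosa26 it was at 42.6, 43.8, 35.5, 49.2 and 34.0 CPM, again with no overlap. Its gene model overlaps those of Braf on the opposite strand (7004 counts over the series, against 16575 of Ndufb2), Gm16272 (34 counts) and Gm42420 (2 counts).

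In all, 11 nuclear genes had every HIRA library below every Rosa26 library at 6 months, against 1.74% of all tested genes, and none of the 91 had every library above, against 1.41%. Apart from Atp5e and Ndufb2 they were Atp5j2, Ndufc1, Ndufa9, Ndufs1, Atp5g1, Sdhd, Sdhc, Atp5g3 and Atp5f1. Without HIRA replicate 5, 22 nuclear genes had the 4 HIRA libraries below the 5 Rosa26 libraries, against 2.96% of all tested genes, and none of the 91 had them above, against 2.72%. Atp5j2, the f subunit of the membrane part of the ATP synthase, was at 105, 95.6, 102, 90.2 and 110 CPM with HIRA. With Rosa26 it was at 137, 121, 136, 156 and 119 CPM. Its log2 fold change was -0.41 ± 0.11 with an adjusted p of 0.0615 (edgeR), which misses the threshold.

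**Figure D3:**
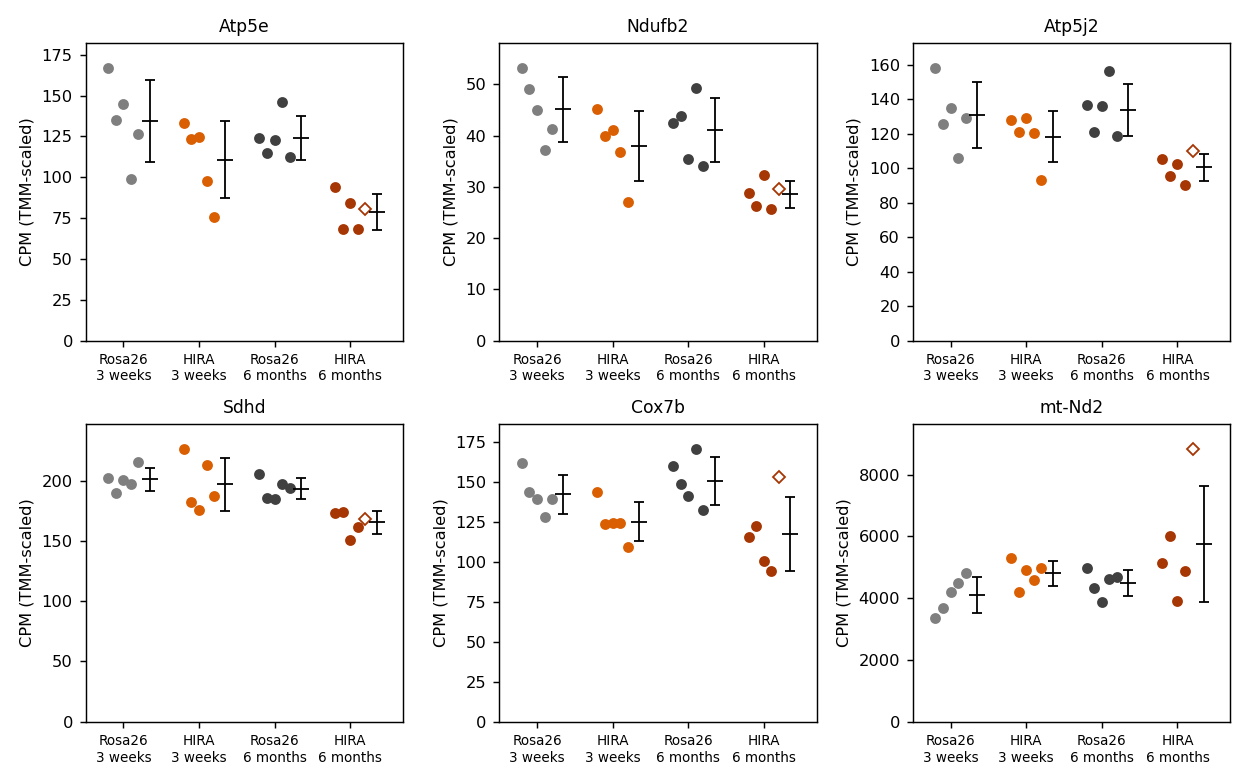
TMM-scaled CPM (y axis) of Atp5e, Ndufb2, Atp5j2, Sdhd, Cox7b and mt-Nd2 in the 4 groups, 1 point per library with mean and SD (n = 5), the open diamond being HIRA 6 months replicate 5. For Atp5e, Ndufb2, Atp5j2 and Sdhd the HIRA libraries at 6 months lie below all Rosa26 libraries of that time, and for Cox7b and mt-Nd2 the open diamond is the highest of its group.

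The number passing rested on single libraries: leaving out 1 library of the 20 gave 0 to 6. It was 0 without HIRA replicate 2 or 4 or Rosa26 replicate 1 or 4 of 6 months, and 6 without HIRA replicate 5 of 3 weeks or of 6 months. Cox7b, a small membrane-spanning subunit of complex IV, was at 116, 123, 101, 94.2 and 153 CPM with HIRA at 6 months, the last value being this library, and at 160, 149, 141, 171 and 133 CPM with Rosa26. Leaving it out, 6 genes passed (1.74% of all genes tested passed without it), namely Cox7b at -0.48, Cox7a2 at -0.43, Ndufa2 at -0.61, Atp5e at -0.66, Ndufs6 at -0.50 and Ndufb2 at -0.54. In that fit 49 of the 91 were lower at unadjusted p under 0.05, where 7.77% of all tested genes were, 46 of them nuclear. The other 3 were among the 6 mitochondrial genes with few counts, and 0 of the 7 well-counted ones were lower. In all, 75 of 78 nuclear genes were below 0, as were 46.5% of all tested genes, and the nuclear median was -0.23.

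DESeq2 called 17 of the 91 at 6 months, all lower, where it called 3.91% of all genes. They included Atp5e and Ndufb2, and further Sdhb, Sdhc and Sdhd of complex II, Ndufa2, Ndufa9, Ndufb6, Ndufc1 and Ndufs1 of complex I, Cox6c, Cox7a2 and Cox7b of complex IV and Atp5g1, Atp5j, Atp5j2 and Atp5k of the ATP synthase. No gene of the 91 exceeded a log2 fold change of 1 in either direction at 6 months.

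By complex, the 6-month medians of the nuclear genes were -0.21 for complex I, -0.22 for complex II, -0.18 for complex III, -0.07 for complex IV and -0.15 for complex V. At unadjusted p under 0.05, 15 of 35, 4 of 4, 2 of 8, 3 of 14 and 8 of 17 were lower, and none was higher, against 6.85% of all tested genes lower and 8.68% higher. With HIRA replicate 5 left out the medians were -0.24, -0.24, -0.21, -0.15 and -0.25, 22, 4, 4, 6 and 10 were lower, and 1 gene of complex IV was higher, where 7.77% of all tested genes were lower and 9.94% higher. Whether the complexes differed from each other was not tested.

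**Figure D4:**
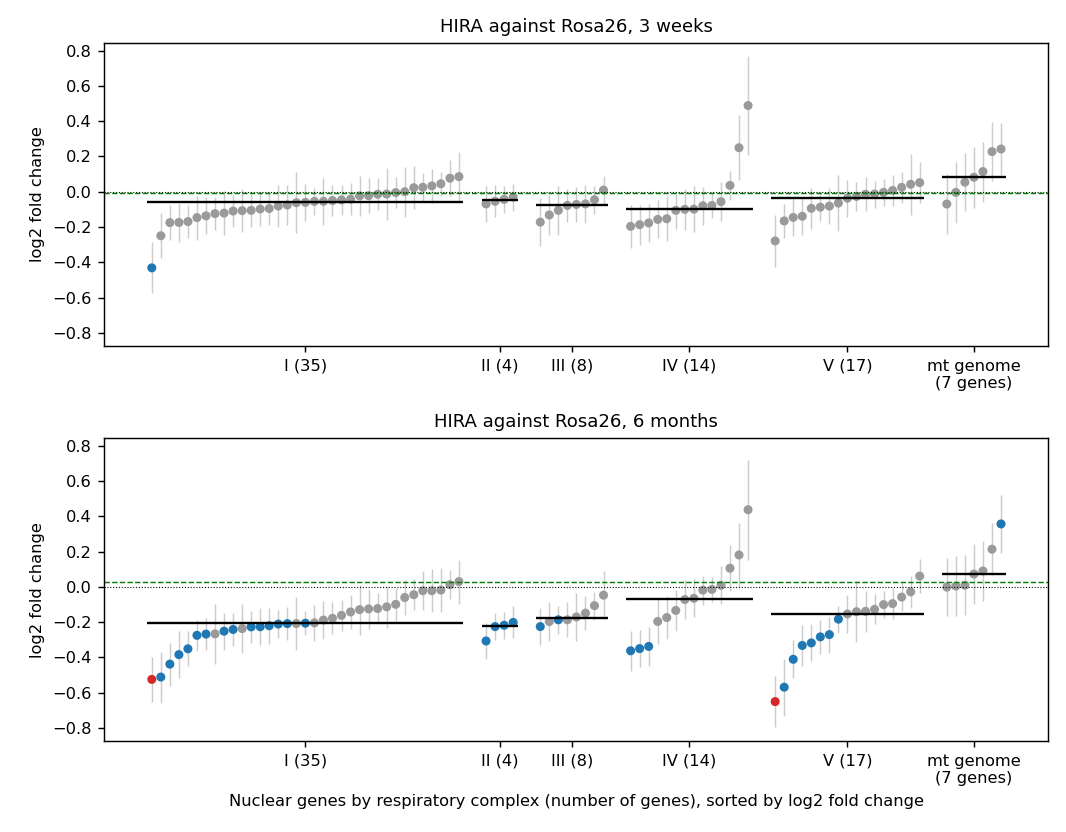
Log2 fold change (y axis, bars SE) between the HIRA and Rosa26 guides at 3 weeks (top) and 6 months (bottom), 1 point per gene sorted within complex, with the 7 well-counted mitochondrial genes at the right. Black lines are medians, the green dashed line is the median over all tested genes, red marks adjusted p under 0.05 and blue unadjusted p under 0.05. At 6 months the nuclear medians lie between -0.22 and -0.07 and the mitochondrial one at 0.07.

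Complex II, which links the tricarboxylic acid cycle to the respiratory chain, has only nuclear subunits. The 4 genes together took 0.0896% ± 0.00155 of counts with HIRA and 0.103% ± 0.00762 with Rosa26 at 6 months (SD, n = 5). The HIRA libraries ran from 0.0877% to 0.0920% and the Rosa26 libraries from 0.0962% to 0.112%, without overlap. Without HIRA replicate 5 the HIRA mean was 0.0897% ± 0.00176 (n = 4). At 3 weeks the shares were 0.0943% ± 0.00763 and 0.0956% ± 0.00727 and overlapped. The 6-month log2 fold changes were -0.20 ± 0.09 for Sdha, the flavoprotein, -0.31 ± 0.10 for Sdhb, the iron-sulphur subunit, and -0.22 ± 0.08 for each of Sdhc and Sdhd, the membrane anchors.

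Sdhd was at 173, 174, 151, 161 and 168 CPM with HIRA at 6 months and at 206, 185, 185, 197 and 194 CPM with Rosa26. Sdhb was at 113, 150, 130, 134 and 162 CPM with HIRA and at 180, 157, 165, 189 and 162 CPM with Rosa26. The groups were apart for Sdhd and overlapped for Sdhb, where HIRA replicate 5 was within the Rosa26 range.

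A set of 18 nuclear subunits at or close to the catalytic core held lower values too, although none of them passed in edgeR. It held subunits of all 5 complexes, Cox4i1 and Cox5a for complex IV among them. Cox4i1 and Cox5a are accessory, the catalytic core of complex IV being mitochondrially encoded. DESeq2 called 4 of them, Ndufs1, Sdhb, Sdhc and Sdhd, where it called 3.91% of all genes. Of the 18, 8 were lower at unadjusted p under 0.05 at 6 months, against 6.85% of all tested genes, and 17 were below 0 with a median of -0.16, against 45.7% of all genes. Without HIRA replicate 5, 9 were lower, where 7.77% of all tested genes were, and 18 were below 0, with a median of -0.19. Among them were Ndufs1 (-0.21 ± 0.07) and Ndufv1 (-0.24 ± 0.09), which carry the iron-sulphur clusters and the NADH-binding site of complex I, Ndufs8 (-0.21 ± 0.09) and Uqcrfs1, the Rieske protein of complex III (-0.19 ± 0.08). Atp5a1 and Atp5b, the alpha and beta subunits that form the catalytic head of the ATP synthase, had values of -0.10 ± 0.08 and -0.10 ± 0.09, and Cox4i1 and Cox5a values of -0.07 ± 0.11 and -0.02 ± 0.08. For these 4 genes the unadjusted p was above 0.05. At 3 weeks none of the 18 was lower at unadjusted p under 0.05.

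Ndufs1 was at 78.5, 79.0, 70.7, 77.3 and 77.6 CPM with HIRA at 6 months and at 96.3, 84.3, 88.2, 91.0 and 82.0 CPM with Rosa26. At 3 weeks it was at 87.6, 76.6, 80.5, 86.3 and 80.8 CPM with HIRA and at 74.7, 77.4, 79.0, 78.6 and 89.3 CPM with Rosa26. The order of the groups thus differed between the times, but the difference of the guide effects, at -0.25 ± 0.09, had an adjusted p of 0.688 (edgeR).

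The Atp5g genes, which all encode the c subunit of the ATP synthase rotor, did not have equal values. Atp5g1 and Atp5g3 had log2 fold changes of -0.32 ± 0.10 and -0.27 ± 0.10 at 6 months, while Atp5g2 had -0.03 ± 0.09. Atp5g3 was at 282, 257, 247, 223 and 289 CPM with HIRA and at 338, 290, 314, 333 and 290 CPM with Rosa26. The differences between these genes were not tested, and Atp5g2 is among the nuclear genes with a near-identical copy.

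Several isoforms were near the floor. Cox7a1 had a median of 5.12 FPKM and Ndufa4l2 one of 3.09 FPKM, against 147 FPKM for Cox7a2 and 542 FPKM for Ndufa4. The gene model of Ndufa4l2 overlaps that of Shmt2 on the opposite strand (114898 counts over the series, against 927 of Ndufa4l2). Cox6a2, Cox8b and Cox4i2, expressed in muscle or lung, had 44, 36 and 56 counts over all libraries, and the testis isoform Cox8c had 0. Cox7a1 had the highest 6-month value of the nuclear genes, 0.44 ± 0.28, followed by Ndufa4l2 at 0.18 ± 0.18 and Cox6a1 at 0.11 ± 0.13. Its CPM were 2.74, 1.46, 1.29, 1.52 and 0.864 with HIRA and 1.41, 1.35, 0.861, 1.11 and 1.10 with Rosa26, overlapping, with replicate 1 apart.

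The well-counted protein-coding genes of the mitochondrial genome did not share the lower values of the nuclear genes at 6 months in the full set of libraries. The 7 well-counted genes had a median log2 fold change of 0.07 and ran from -0.00 to 0.36. Their median was -0.14 without HIRA replicate 5, so their direction rested on that library. It was 0.16 without HIRA replicate 3, 0.15 without HIRA replicate 1, 0.11 without Rosa26 replicate 4, 0.04 without Rosa26 replicate 2 and 0.02 without HIRA replicate 2. mt-Nd2, a membrane subunit of complex I, was at 0.36 ± 0.17 (edgeR unadjusted p = 0.0432, adjusted p = 0.304) and at 0.15 ± 0.13 without that library.

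For mt-Nd2 the HIRA libraries at 6 months were at 5149, 6023, 3895, 4879 and 8840 CPM and the Rosa26 libraries at 4985, 4330, 3874, 4609 and 4679 CPM. mt-Co1 was at 13766, 21267, 14302, 18941 and 25610 CPM with HIRA and at 18140, 16042, 16738, 19822 and 18520 CPM with Rosa26. Replicate 5 was the highest library for both, and the HIRA libraries spread more widely than the Rosa26 libraries. mt-Cytb, the haem-carrying subunit of complex III, followed at 6265, 7927, 5571, 6484 and 12649 CPM with HIRA and 7966, 6988, 6716, 8437 and 8531 CPM with Rosa26.

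In FPKM the libraries of the 2 guides overlapped at 6 months for each of the 6 genes with few counts. The HIRA mean divided by the Rosa26 mean ran from 0.989 for mt-Co3 to 1.12 for mt-Nd4l, and from 0.898 to 1.05 for the same genes without HIRA replicate 5. mt-Nd4l had means of 2502 ± 465 FPKM with HIRA and 2239 ± 402 FPKM with Rosa26 (SD, n = 5), and mt-Atp8 means of 21768 ± 5847 FPKM and 19974 ± 1708 FPKM. Without replicate 5 the HIRA means of these genes were 2349 ± 363 FPKM and 19623 ± 3863 FPKM (n = 4). mt-Co2 had means of 6886 ± 1428 FPKM with HIRA and 6776 ± 576 FPKM with Rosa26 (SD, n = 5), and mt-Atp6, a subunit of the proton channel, 6704 ± 1677 FPKM and 6363 ± 422 FPKM. Without replicate 5 the HIRA means were 6267 ± 406 FPKM for mt-Co2 and 5978 ± 490 FPKM for mt-Atp6.

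The ribosomal RNAs of the mitochondrial genome, mt-Rnr1 and mt-Rnr2, had higher values with the HIRA guide at both times. Together they took 0.103% ± 0.0170 of counts with Rosa26 and 0.144% ± 0.0213 with HIRA at 3 weeks, and 0.120% ± 0.0158 and 0.178% ± 0.0360 at 6 months (SD, n = 5), or 0.168% ± 0.0327 without HIRA replicate 5 (n = 4). The libraries overlapped at both times, at 0.0850% to 0.123% against 0.117% to 0.175% and at 0.105% to 0.143% against 0.120% to 0.217%. The log2 fold changes at 3 weeks were 0.47 ± 0.15 for mt-Rnr1 and 0.45 ± 0.18 for mt-Rnr2 (edgeR adjusted p = 0.274 and 0.436), and at 6 months 0.51 ± 0.15 and 0.58 ± 0.18 (adjusted p = 0.103 and 0.104). Of the 9 tested mitochondrial transcripts that encode no protein, 5 were higher at unadjusted p under 0.05 at 3 weeks, against 4.37% of all tested genes, and 2 at 6 months, against 8.68%. The other 3 at 3 weeks were the transfer RNAs mt-Ta, mt-Tc and mt-Te, with 116, 395 and 34 counts over the series. The part of polyA selection or RNA quality in the mitochondrial values was not tested.

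Between 3 weeks and 6 months with the Rosa26 guide, no gene of the 91 passed (0 at adjusted p under 0.05, edgeR, where 0.324% of all genes passed). DESeq2 called 1, where it called 2.21% of all genes, and limma-voom called 0. At unadjusted p under 0.05, 5 genes were higher and none was lower, where the shares of all genes were 6.38% higher and 6.38% lower. The 5 were mt-Atp8, mt-Co2, mt-Nd5, mt-Atp6 and Ndufs1. Of these, mt-Atp8, mt-Co2 and mt-Atp6 are among the 6 genes with few counts. Their Rosa26 FPKM means were 17239 ± 4398, 6223 ± 376 and 5832 ± 693 at 3 weeks (SD, n = 5). At 6 months they were 19974 ± 1708, 6776 ± 576 and 6363 ± 422. The nuclear median was 0.01, with 35 of 78 below 0 (49.5% of all genes), and the 7 well-counted mitochondrial genes had a median of 0.22, none below 0. That mitochondrial median ran from 0.15 to 0.29 with 1 library left out. Leaving out 1 library moved the nuclear median from -0.04 without Rosa26 6 months replicate 4 (50 below 0) to 0.05 without Rosa26 3 weeks replicate 1 (22 below 0), so its sign is not settled. The number higher was 2 without Rosa26 3 weeks replicate 3 or 6 months replicate 1, 3 without replicate 4 of either time, and 8 without HIRA 6 months replicate 5, against 5.46% to 7.16% of all genes. mt-Nd5, the largest membrane subunit of complex I, had 0.39 ± 0.17.

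With the HIRA guide, no gene passed between the times either (0.0656% of all genes passed in edgeR). DESeq2 called 2, where it called 0.625% of all genes, and limma-voom called 0. Of the nuclear genes 12 were lower at unadjusted p under 0.05, against 3.36% of all genes, and none was higher, against 5.58%. The leading ones were Ndufb6 at -0.40 ± 0.10, Atp5e at -0.49 ± 0.15 and Ndufb2 at -0.41 ± 0.13. The nuclear median was -0.09 and 63 of 78 were below 0 (44.6% of all genes), and without HIRA 6 months replicate 5 the median was -0.16 with 77 of 78 below 0. In that fit 21 nuclear genes were lower at unadjusted p under 0.05, against 3.72% of all genes. Leaving out other HIRA libraries moved the median both ways, with 7 to 21 nuclear genes lower. The median was -0.05 with 54 below 0 without HIRA 3 weeks replicate 1, -0.06 without HIRA 6 months replicate 3 (52 below 0) or 4 (53 below 0), and -0.15 without HIRA 3 weeks replicate 5 (68 below 0). This comparison shares the HIRA libraries of 6 months with the comparison of guides at that time.

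The 7 well-counted mitochondrial genes had a median of 0.26 between the times with the HIRA guide, of 0.05 without that library and of 0.37 without HIRA 6 months replicate 3. Without replicate 3, 6 of the 7 were higher at unadjusted p under 0.05, against 0 of 7 in the full fit. The share of all genes higher ran from 4.6% to 6.4% over the fits with 1 library left out.

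The difference of the guide effects between 6 months and 3 weeks passed for 0 of the 91 and for 0% of all tested genes in edgeR, and for 0 in DESeq2 and limma-voom. At unadjusted p under 0.05, 4 of the 91 were lower, against 2.95% of all genes, and none was higher, against 3.67%. The 4 were Ndufs1, Ndufb6, Atp5k and mt-Co3, which is among the 6 genes with few counts. The nuclear median was -0.11, with 65 of 78 below 0 (45.6% of all genes). Without HIRA 6 months replicate 5, 12 of the 91 were lower, against 3.47% of all genes, and the nuclear median was -0.16 with 72 below 0 (46.8% of all genes). Of these 12, 8 were nuclear and 4 were among the 6 mitochondrial genes with few counts. Over all the libraries left out 1 at a time, 1 to 14 of the 91 were lower, against 2.28% to 3.47% of all genes, and the nuclear median ran from -0.16 to -0.06. The count was 14 without HIRA 3 weeks replicate 5. It was 1 without HIRA 3 weeks replicate 1, HIRA 6 months replicate 4 or Rosa26 6 months replicate 1. The lower nuclear values at 6 months are thus not shown to differ from those at 3 weeks.

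The libraries were also ordered by the nuclear genes as a set. Averaged after centring each gene, on the log2 CPM scale, the lowest library was HIRA 6 months replicate 4 at -0.30, followed by replicate 3 of the same group at -0.23 and by HIRA 3 weeks replicate 5 at -0.22. The highest was Rosa26 3 weeks replicate 1 at 0.23. In the HIRA group of 6 months 4 of 5 libraries were below 0, and replicate 5 was at 0.09. Below 0 were also 3 of 5 HIRA libraries of 3 weeks, 2 of 5 Rosa26 libraries of 6 months and 1 of 5 of 3 weeks.

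Short genes had lower fold changes across the transcriptome. Among protein-coding genes averaging 1 CPM or more, those under 300 coding bases had a median of -0.12 at 6 months (n = 251), and those of 2400 coding bases or more a median of 0.08 (n = 2386). The 22 nuclear oxidative phosphorylation genes under 300 bases had a median of -0.22 and the 9 of 1200 coding bases or more a median of -0.11, or -0.32 and -0.21 without HIRA replicate 5. Over the 78 nuclear genes Spearman's rho between coding length and 6-month fold change was 0.23, and over the 11697 protein-coding genes it was 0.18. These are descriptions across genes that share the same libraries. The part of length in the nuclear values was not tested.

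**Figure D5:**
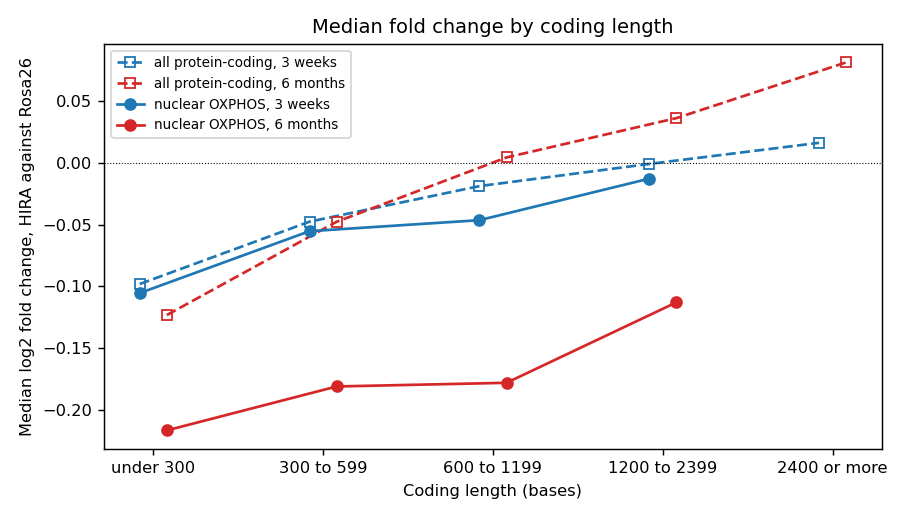
Median log2 fold change between the HIRA and Rosa26 guides (y axis) by coding length in bases (x axis, 5 classes) for the nuclear oxidative phosphorylation genes (filled circles) and all protein-coding genes of at least 1 CPM (open squares) at 3 weeks (blue) and 6 months (red). At 6 months the nuclear genes lie below all protein-coding genes in each of the 4 classes they fill, from -0.22 to -0.11.

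Promoters of the nuclear genes were searched for 4 motifs, on both strands, in RefSeq windows (GRCm38.p6) from 250 bases before to 50 after the start. Of the 78, 64 had a window. NRF1 (GCGCANGCG), a regulator of respiratory genes, was found in 20 of 64 (31.3%, against 7.03% of all 27025 genes), an ETS motif (CCGGAAG) in 17 (26.6% against 9.93%), YY1 (AAGATGGC) in 9 (14.1% against 3.19%) and a TATA box (TATAAAA) in 2 (3.13% against 6.39%). At 6 months the 20 genes with the NRF1 motif had a median log2 fold change of -0.14 and the 44 without it -0.20. For the ETS motif the medians were -0.19 with it and -0.17 without, and for the TATA box -0.20 and -0.18. The 9 with the YY1 motif had -0.27, all below 0, and the 55 without it -0.16. With HIRA replicate 5 left out these medians were -0.21 and -0.25 for NRF1, -0.27 and -0.21 for ETS, -0.31 and -0.24 for the TATA box and -0.35 and -0.22 for YY1. These are descriptions, and the differences were not tested.

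Windows of 3 genes are shown because they hold these motifs and belong to genes with low 6-month values: Atp5e (chr2:174464052-174464351, minus strand, an ETS motif on the reverse strand), Atp5j2 (chr5:145191492-145191791, minus strand, a YY1 motif) and Ndufs6 (chr13:73328433-73328732, minus strand, an NRF1 motif on the reverse strand followed by a YY1 motif). Motifs are in capitals. The windows of Ndufb2, which passed, and of Cox7a2 and Cox7b held none of the 4 motifs.
Atp5e: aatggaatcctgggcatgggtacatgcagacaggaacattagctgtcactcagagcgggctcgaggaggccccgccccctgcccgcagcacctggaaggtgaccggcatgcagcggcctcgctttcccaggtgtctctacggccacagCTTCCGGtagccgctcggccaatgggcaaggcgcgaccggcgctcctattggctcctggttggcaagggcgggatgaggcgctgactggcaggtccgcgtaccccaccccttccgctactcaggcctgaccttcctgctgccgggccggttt
Atp5j2: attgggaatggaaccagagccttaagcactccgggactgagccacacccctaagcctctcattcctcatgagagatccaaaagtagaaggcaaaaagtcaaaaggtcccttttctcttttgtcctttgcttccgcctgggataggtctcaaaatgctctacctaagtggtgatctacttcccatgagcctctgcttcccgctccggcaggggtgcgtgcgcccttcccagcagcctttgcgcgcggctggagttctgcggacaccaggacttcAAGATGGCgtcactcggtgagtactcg
Ndufs6: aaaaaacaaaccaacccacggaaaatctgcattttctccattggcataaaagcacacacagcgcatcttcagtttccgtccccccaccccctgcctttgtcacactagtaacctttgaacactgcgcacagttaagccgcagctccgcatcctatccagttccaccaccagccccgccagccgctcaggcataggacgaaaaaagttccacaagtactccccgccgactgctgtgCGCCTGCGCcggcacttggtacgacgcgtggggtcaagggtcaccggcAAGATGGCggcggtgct

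Genes that assemble or serve the complexes were followed in lists. At 6 months Sdhaf4, an assembly factor of complex II, fell by 0.60 ± 0.11 in log2 CPM (adjusted p in edgeR = 0.0141), Tmem242, an assembly factor of the ATP synthase, fell by 0.40 ± 0.08 (adjusted p = 0.0217) and Cox16, one of complex IV, fell by 0.31 ± 0.07 (adjusted p = 0.0384). Coq3, a methyltransferase of ubiquinone synthesis, fell by 0.37 ± 0.08 (adjusted p = 0.0359), and Mrps25 and Mrps14 of the mitochondrial ribosome fell by 0.48 ± 0.10 and 0.36 ± 0.08 (adjusted p = 0.0237 and 0.0377). For each of these the HIRA and Rosa26 libraries did not overlap, which held downwards for 1.74% of all tested genes. Because these genes were picked by a test on the same libraries, this adds no separate support. Without HIRA replicate 5, Cox16 and Mrps14 no longer passed (edgeR adjusted p = 0.0588 and 0.0593), while the other 4 did.

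In the lists these were 1 of 4 genes of complex II assembly, 1 of 5 of complex V assembly, 1 of 22 tested of complex IV assembly, 1 of 18 electron carriers and 2 of 78 mitochondrial ribosomal proteins, where 1.31% of all tested genes passed. None of 16 genes of complex I assembly and none of 6 of complex III assembly passed, although 8 and 2 were lower at unadjusted p under 0.05, where 6.85% of all tested genes were. With HIRA replicate 5 left out these were 9 and 2, against 7.77%, and 1 gene of complex I assembly passed, where 1.74% of all tested genes did. The list medians ran from -0.23 for complex I assembly to 0.08 for the 11 regulators of mitochondrial genes, of which 3 were below 0. The 23 genes of mitochondrial transcription and RNA handling had a median of -0.05. The medians of these 3 lists without HIRA replicate 5 were -0.21, 0.07 and -0.08. Neither those 23 genes nor the 10 tested genes of mitochondrial DNA replication had a call, and without HIRA replicate 5 they had 1 and 2, where 1.74% of all tested genes passed. Of the electron carriers, cytochrome c (Cycs) had -0.11 ± 0.13 and Cyc1 -0.11 ± 0.09, and Tfam, which packages mitochondrial DNA and activates its transcription, had -0.13 ± 0.07 (edgeR adjusted p = 0.362).

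Higher at 6 months were Coq10b, a ubiquinone-binding protein, by 0.80 ± 0.20 (edgeR adjusted p = 0.0470), and Pprc1, a coactivator of respiratory genes related to PGC-1, by 1.19 ± 0.17 (adjusted p = 0.0105). Without HIRA replicate 5, Coq10b no longer passed (edgeR adjusted p = 0.0745) and Pprc1 did (adjusted p = 0.00361). Pprc1 was 1 of 11 regulators, of which none other passed. It was at 17.4, 16.1, 20.3, 16.6 and 14.8 CPM with HIRA and at 7.04, 9.51, 7.66, 4.40 and 8.67 CPM with Rosa26 at 6 months. At 3 weeks it was at 18.3, 18.9, 19.3, 20.6 and 17.4 CPM with HIRA and at 17.6, 20.3, 16.1, 14.7 and 10.2 CPM with Rosa26. The Rosa26 group of 6 months was the low one, and Pprc1 fell by 1.08 ± 0.17 between the times with that guide (adjusted p = 0.0152), a comparison that shares those libraries. Ppargc1a, encoding PGC-1 alpha, had -0.17 ± 0.16 at 6 months.

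The labelled tissue was clear in all libraries, with 6 hepatocyte markers summing to 90804 to 160208 CPM. At 6 months they summed to 90804 to 116891 CPM with Rosa26 and to 112483 to 139355 CPM with HIRA. Summed markers of macrophages, stellate cells and lymphocytes spread widely at that time, from 125 to 977, 149 to 316 and 11.3 to 59.5 CPM with Rosa26 and from 71.3 to 565, 162 to 775 and 10.3 to 58.1 CPM with HIRA. HIRA replicate 5 was the lowest HIRA library in all 3, and without it the ranges were 191 to 565, 281 to 775 and 19.8 to 58.1 CPM. No gene of the 9 marker lists passed in either comparison of guides (edgeR). Their part in the nuclear values was not tested.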

How the data were processed

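PolyA-selected RNA was sequenced from directional libraries of 20 livers (5 per group). Per the labels, the authors processed reads with STAR, HTSeq and Cufflinks on mm10, with versions not given there. The study's methods name HOMER in place of HTSeq for gene counts, and which tool made the deposited counts is not settled by these sources. The deposited gene counts are raw whole-number counts per gene. The authors also deposited FPKM values, which carry no depth of their own and are blank for Cox4i1 in all 20 libraries. Library totals of 19916430 to 24079736 set the precision, and no 2 libraries held identical values.

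Counts were tested with edgeR 4.0.16 (quasi-likelihood, TMM scaling, all 20 libraries, at least 10 counts in all, Benjamini-Hochberg over 22867 genes), and log2 CPM used a prior count of 2. Passed means an adjusted p under 0.05. Alternatives were DESeq2 1.42.0, limma 3.58.1 (voom, and log2(FPKM + 1) with a pseudocount of 1), other scaling and filters, a replicate block and the omission of each library. The scripts were checked on simulated counts. Nothing says whether replicates were handled in batches. P-values measure the spread between these livers.

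Genes were annotated with GENCODE M21 (GRCm38). Copies were found with blastn among its transcripts, at 95% identity or more over at least 75 bases. Genes named are all mitochondrial members, the 18 subunits at or close to the catalytic core, isoform families, members with adjusted p under 0.05, the 3 largest and 3 smallest nuclear fold changes at a mean of at least 1 CPM, and list genes that passed. Any other gene was picked with its values in view. The gene set and lists were chosen with earlier results of these data known.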

Additional observations from a re-analysis of the deposited data

Results flagged for a closer look

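Each group of 5 libraries was checked for a library far from the other 4, by a gap above 0.71 of the group's range, over 124 groups of values. Chance alone flags about 5% of groups, and 4 were found. Rosa26 6 months replicate 2 had the lowest mitochondrial share of its group, 3.71% of counts against 4.17% to 4.29%. HIRA 3 weeks replicate 2 had 1371 counts on the chromosome 1 copies, against 333 to 596. HIRA 3 weeks replicate 5 had 93.0 CPM of Atp5j2, against 120 to 129 CPM. HIRA 6 months replicate 3 had 70.7 CPM of Ndufs1, against 77.3 to 79.0 CPM. The library with male marker counts was not among them.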

How the results depend on the processing

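At 6 months the count of genes passing between guides, 2 in the reported fit, was 3 with the replicate block (1.42% of all genes), 17 with DESeq2 (3.91%), 5 with a filter of 1 CPM in 5 libraries (3.88%), 1 with limma-voom (1.3%), 0 with log2 FPKM (2.02%) and 0 with only the libraries of the comparison, whose fit has fewer samples and called 0 of all 20832 genes. Leaving out 1 library gave 0 to 6 (0.216% to 1.74% of all genes). It was 0 without HIRA replicate 2 or 4 or Rosa26 replicate 1 or 4 of 6 months, 6 without HIRA 6 months replicate 5 or HIRA 3 weeks replicate 5, and 1 without any of 6 others. Settings chosen after seeing the data, without HIRA 6 months replicate 5, gave 26 with DESeq2 (5.14% of all genes) and 14 with the replicate block (1.92%). For the other causes of change, the cause was not tested. At 3 weeks DESeq2 without that library called 1 (1.38% of all genes). Between the times DESeq2 called 2 with HIRA and 1 with Rosa26, also without that library (2 and 1, against 0.837% and 3.03% of all genes). The block without it gave 1 with HIRA (0.291%), and the libraries of the comparison alone gave 1 with Rosa26 (0.718%). The nuclear median at 6 months stayed below 0 under every alternative, from -0.23 to -0.13 when 1 library was left out, and at -0.18 with the block.

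Replicate numbers did not pair the libraries. Correlations of same-numbered libraries ran from -0.31 to 0.33 with a median of 0.08, and 5 of 20 libraries correlated best with their own number. No gene with an unadjusted p under 0.05 changed direction with the block, scaling without mitochondrial transcripts, DESeq2, limma-voom or a library left out, but in FPKM mt-Co3 at 3 weeks was at -0.02. Atp5e kept its call in 22 of 29 alternatives and Ndufb2 in 17, and both kept it in the 2 settings chosen after seeing the data. Over the 29 their log2 fold changes ran from -0.73 to -0.58 and from -0.58 to -0.45. Both lost it in FPKM and with only the libraries of the comparison, Ndufb2 also with limma-voom, and the other losses came from leaving out 1 library. Counting error limits mt-Nd3 and mt-Nd4l, with medians of 28 and 22 counts.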
